A study of Mus musculus with 12 samples.

Results

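The effect of losing the host's Sirpα was read in MC38 tumors in both irradiation states. MC38 is a mouse colorectal adenocarcinoma line, and the same cancer cells were engrafted in Sirpα-KO and in WT C57BL6 mice aged 6 to 8 weeks. The 4 tumor conditions were Sirpα-KO after IR (8 Gy), WT after IR (8 Gy), Sirpα-KO without IR and WT without IR, which are 4 of the 12 samples of the series. Each condition was 1 sample in which RNA of 4 mice, taken 12 h and 18 h after irradiation, was pooled, so the spread between mice is not known. Tumors exceeded 200 mm3 according to the sample labels, and were 250 to 300 mm3 in the study design. The knockout is of the host, so cancer cells and host cells both contribute RNA and only the host cells lack the gene. In such bulk tumors, fewer cells of a type and less RNA per cell cannot be told apart. The Sirpa transcript itself was not analysed here, and the genotypes rest on the labels.

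SIRPα is an inhibitory receptor of macrophages and other myeloid cells. It binds CD47 on neighboring cells, and the motifs of its cytoplasmic tail recruit the phosphatases SHP-1 and SHP-2, which restrain phagocytosis and inflammatory signaling. Macrophages also present antigen, for which peptides are loaded on MHC class II molecules, whereas cytotoxic T cells and NK cells kill through granules that hold perforin and granzymes.

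The nCounter Mouse Immunology Panel counts barcoded probes, and the values below are normalized counts of 561 genes. The 4 samples held 159476 to 261851 net counts, the 14 reference genes summed to 58124 in each, and their geometric mean lay between 824 and 922. Genes at the lowest value of their sample numbered 17 in irradiated Sirpα-KO, 66 in irradiated WT, 72 in non-irradiated Sirpα-KO and 131 in non-irradiated WT tumors. Ratios are log2 of (normalized count + 10) in Sirpα-KO over WT tumors, a scale that understates the change of low genes, and their ± covers counting error only (95%). A gene was considered where the larger of the 2 values was at least 50, so a gene low in either genotype entered through the other. Within an irradiation state 1 sample stands against 1, and no test was possible there.

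Sirpα loss was accompanied by different genes in the 2 irradiation states, and few genes moved alike in both. After IR, 30 of 346 genes were at least 2-fold higher (8.67%) and 24 were at least 2-fold lower (6.94%) in Sirpα-KO than in WT tumors. Without IR, 16 of 272 were higher (5.88%) and 9 were lower (3.31%). Of the 271 genes considered in both states, *Ifna1* alone was 2-fold higher in both (0.369%), *Gzmb* alone was 2-fold lower in both (0.369%), and 4 genes were lower after IR but higher without IR (1.48%). None went the opposite way (0%). At 1.5-fold, 19.9% were higher and 17.9% lower after IR, and 11.4% higher and 8.46% lower without IR. In both states at 1.5-fold, 7 genes were higher (2.58%), 6 were lower (2.21%), 9 were lower after IR and higher without (3.32%), and 3 were higher after IR and lower without (1.11%).

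The ratios of the 2 states, which share no sample, were nearly unrelated. Across the 271 genes Pearson's r was −0.05 and Spearman's rho −0.03, as a description over genes of the same 4 libraries, which are not independent replicates. The sign was the same in 133 genes (49.1%), of which 50 were positive and 83 negative in both. All 25 genes called without IR were considered after IR, and 13 of them were there under 1.5-fold. In the other direction, 35 of the genes called after IR were considered without IR, and 23 of those were under 1.5-fold. Low genes were higher in the irradiated Sirpα-KO tumors in general, with a median ratio of 0.69 over the 232 genes whose 2 values averaged under 50, against 0.12 over 312 such genes without IR. When both values had to be at least 100, the counts were 8 higher and 11 lower after IR, and 6 higher and 5 lower without IR.

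**Figure D1:**
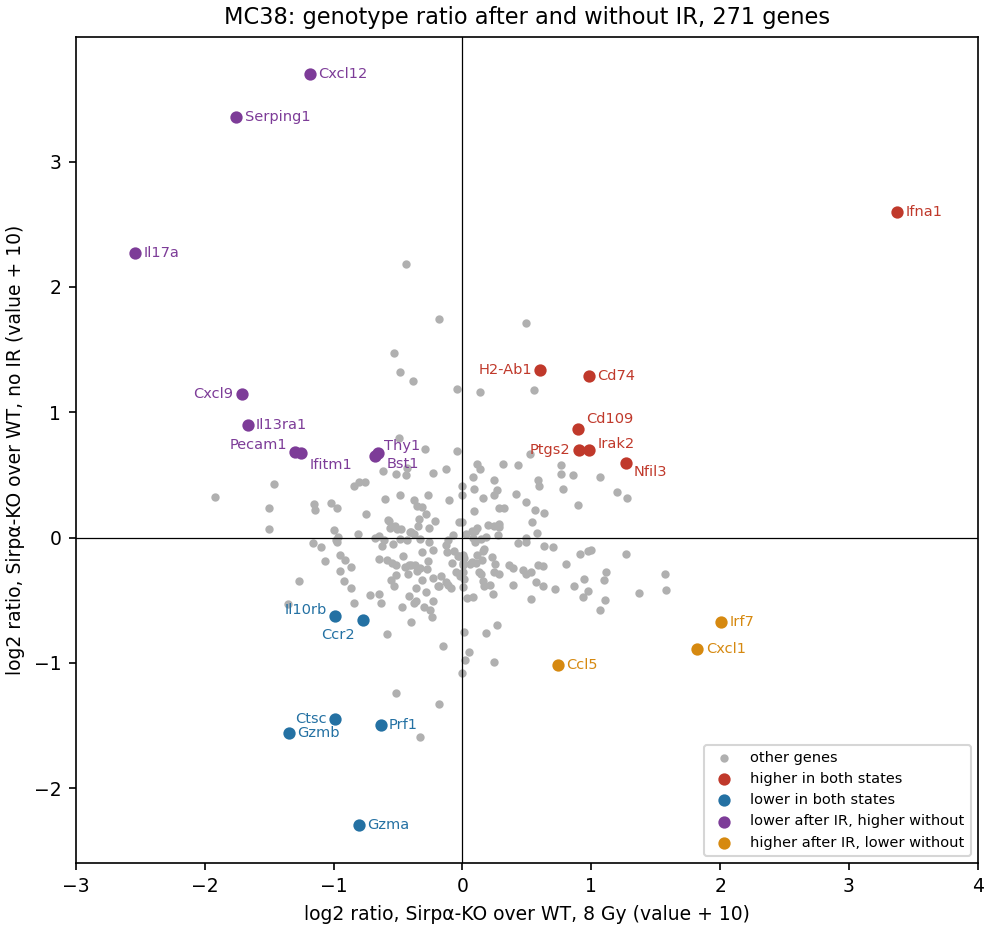
Log2 ratio of Sirpα-KO over WT MC38 tumors (normalized count + 10) after 8 Gy on the horizontal axis and without IR on the vertical axis, each point 1 of 271 genes and colors marking genes at least 1.5-fold apart in both states. The 13 genes of the upper right and lower left kept their direction, 9 genes lie at the upper left and 3 at the lower right, and the cloud has no slope (Pearson's r −0.05).

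Of the 7 genes higher in both states at 1.5-fold, *Cd74* and *H2-Ab1* belong to MHC class II antigen presentation, and further class II genes had the higher value in Sirpα-KO tumors in both states below that fold. *Cd74*, the invariant chain that escorts class II molecules, was at 4361 in irradiated Sirpα-KO and 2200 in irradiated WT tumors, and at 2405 in non-irradiated Sirpα-KO and 979 in non-irradiated WT tumors. Its ratio was 0.98 ± 0.08 after IR and 1.29 ± 0.10 without IR. The value of non-irradiated Sirpα-KO tumors was close to that of irradiated WT tumors.

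*H2-Aa* and *H2-Ab1* encode the alpha and beta chains of I-A, the class II molecule of this strain. *H2-Aa* was at 3348 in irradiated Sirpα-KO and 2378 in irradiated WT tumors, and at 2367 and 714 in the non-irradiated Sirpα-KO and WT tumors (ratios 0.49 ± 0.08 and 1.71 ± 0.11). *H2-Ab1* was at 1877 in irradiated Sirpα-KO and 1230 in irradiated WT tumors, and at 1428 and 558 in the non-irradiated Sirpα-KO and WT tumors (0.61 ± 0.12 and 1.34 ± 0.13). In all 3 genes non-irradiated WT tumors were the lowest of the 4 samples and irradiated Sirpα-KO tumors the highest.

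*H2-Eb1*, the beta chain of I-E, followed the same order, at 376 in irradiated Sirpα-KO and 252 in irradiated WT tumors, and at 304 and 129 in the non-irradiated Sirpα-KO and WT tumors. C57BL6 mice are known to lack the I-E alpha chain, and *H2-Ea-ps* was at 1.0, 1.5, 1.08 and 1.0 in the same order of samples. *Ctss*, cathepsin S, which cuts the invariant chain before peptides are loaded, was at 4681 in irradiated Sirpα-KO and 2751 in irradiated WT tumors, and at 1603 and 1123 in the non-irradiated Sirpα-KO and WT tumors. These 2 genes also had the higher value in Sirpα-KO tumors in both states.

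The exceptions were *H2-DMa*, which helps to load peptides, and *Ciita*, the transactivator of class II genes. *H2-DMa* was at 253 in irradiated Sirpα-KO and 360 in irradiated WT tumors (−0.49 ± 0.24), against 210 and 117 in the non-irradiated Sirpα-KO and WT tumors (0.80 ± 0.29). *Ciita* was low, at 41.8 in irradiated Sirpα-KO and 59.4 in irradiated WT tumors, and at 37.1 and 15.9 in the non-irradiated Sirpα-KO and WT tumors. Both had the lower value in Sirpα-KO tumors after IR and the higher value without IR. Of the 10 class II genes measured, 6 were considered in both states and 5 of these were positive in both. The list's median was 0.56 after IR, with 0 of 7 genes at least 2-fold higher (8.67% of all genes), and 1.23 without IR, with 4 of 6 at least 2-fold higher (5.88% of all genes), beside medians of 0.00 and −0.07 over all genes considered.

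The promoters of class II genes are known to share an X box and a Y box, to which RFX and NF-Y bind and on which CIITA assembles. They are shown here because these genes moved together. Of 6 class II genes looked up in the RefSeq promoters, *H2-Aa*, *H2-Eb1* and *Ctss* were matched. The 110 bases before the start of the 2 chain genes are given 5′ to 3′ on the strand of the gene, with the core of the X box (GCAAC) and the Y box (CTGATTGG) in capitals, *H2-Aa* at chr17:34287824-34287933 on the minus strand and *H2-Eb1* at chr17:34305757-34305866 on the plus strand (build GRCm38.p6):
H2-Aa: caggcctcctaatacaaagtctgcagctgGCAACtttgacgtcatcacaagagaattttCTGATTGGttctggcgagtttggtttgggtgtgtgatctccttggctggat
H2-Eb1: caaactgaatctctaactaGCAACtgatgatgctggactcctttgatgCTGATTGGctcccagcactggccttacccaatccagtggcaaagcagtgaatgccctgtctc

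The X box core began 81 bases before the start in *H2-Aa* and 91 in *H2-Eb1*, and 25 and 24 bases separated it from the Y box. Among 32851 RefSeq promoters, the 250 bases before the start held CTGATTGG on either strand in 3.83%, GCAAC in 29.9% and both in 1.22%. A match is a description of the sequence and says nothing of binding in these tumors.

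Macrophage genes did not share the pattern of class II. The summed value of 9 of 11 listed macrophage and monocyte markers was 8601 in irradiated Sirpα-KO and 4536 in irradiated WT tumors, but 2722 in non-irradiated Sirpα-KO and 3064 in non-irradiated WT tumors, with *Marco* under the floor of 3 counts in all samples but irradiated WT. That floor came to 2.33 to 4.51 normalized counts. Dendritic cell markers (5 of 6 measured) summed to 275 in irradiated Sirpα-KO and 153 in irradiated WT tumors, and to 170 and 103 in the non-irradiated Sirpα-KO and WT tumors, with 2 of the 5, *Xcr1* and *Batf3*, under the floor in both WT samples. Their part in the class II values was not tested.

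*Ifna1* encodes a type I interferon, and, without the sequence of its probe, it is uncertain which members of the interferon alpha family were counted. It was at 195 in irradiated Sirpα-KO and 9.78 in irradiated WT tumors (3.37 ± 0.58). Without IR it was at 56.5 in Sirpα-KO tumors and at the lowest value, 1.0, in WT tumors, whose highest negative control read 9.5. Set against 3 counts in the WT sample, *Ifna1* was at least 24.3-fold higher in Sirpα-KO tumors. It was chosen for being higher in both states, so the order of its 4 samples is no further support.

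The other genes higher in both states were moderate. *Nfil3*, a transcription factor needed for NK cells, was at 244 in irradiated Sirpα-KO and 95.5 in irradiated WT tumors, and at 280 and 183 in the non-irradiated Sirpα-KO and WT tumors. *Ptgs2*, which encodes cyclooxygenase-2, was at 159 in irradiated Sirpα-KO and 80.5 in irradiated WT tumors, and at 104 and 60.1 in the non-irradiated Sirpα-KO and WT tumors. Both genes were likewise chosen for their direction, so the order of their samples adds nothing to it.

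*Irak2*, a kinase of toll-like and interleukin-1 receptor signaling, was at 118 in irradiated Sirpα-KO and 54.9 in irradiated WT tumors, and at 60.8 and 33.8 in the non-irradiated Sirpα-KO and WT tumors. *Cd109*, a co-receptor of TGF-β, was at 97.0 in irradiated Sirpα-KO and 47.4 in irradiated WT tumors, and at 68.4 and 33.0 in the non-irradiated Sirpα-KO and WT tumors. All 4 genes had ratios between 0.59 and 1.27.

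Of the 6 genes lower in both states at 1.5-fold, 3 encode proteins of cytotoxic granules. *Gzmb*, granzyme B, was at 177 in irradiated Sirpα-KO and 466 in irradiated WT tumors, and at 28.5 in non-irradiated Sirpα-KO and 104 in non-irradiated WT tumors (−1.35 ± 0.25 and −1.56 ± 0.46). *Gzma*, granzyme A, was at 128 in irradiated Sirpα-KO and 231 in irradiated WT tumors, and at 25.3 and 163 in the non-irradiated Sirpα-KO and WT tumors (−0.80 ± 0.31 and −2.30 ± 0.46). *Prf1*, perforin, was at 240 in irradiated Sirpα-KO and 378 in irradiated WT tumors, and at 21.0 and 77.2 in the non-irradiated Sirpα-KO and WT tumors (−0.63 ± 0.24 and −1.49 ± 0.50). All 3 had their higher value after IR in each genotype, and non-irradiated Sirpα-KO tumors were the lowest of the 4 samples.

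*Ctsc* encodes cathepsin C, the peptidase that activates granzymes. It was at 157 in irradiated Sirpα-KO and 321 in irradiated WT tumors, and at 182 and 515 in the non-irradiated Sirpα-KO and WT tumors (−0.99 ± 0.27 and −1.45 ± 0.23). Unlike the granule genes, *Ctsc* was lower after IR than without IR in each genotype.

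Markers of the cells that carry such granules did not all follow them. The T cell markers (7 of 7 measured) summed to 417 in irradiated Sirpα-KO and 202 in irradiated WT tumors, and to 99.6 and 38.9 in the non-irradiated Sirpα-KO and WT tumors, with *Cd4* under the floor in both WT samples and *Cd5* and *Cd8b1* in the non-irradiated one. *Cd8a*, which marks cytotoxic T cells, was at 73.0 in irradiated Sirpα-KO and 29.3 in irradiated WT tumors, and at 9.15 and 2.72 in the non-irradiated Sirpα-KO and WT tumors. The NK cell receptor *Klrd1* was at 302 in irradiated Sirpα-KO and 452 in irradiated WT tumors, but at 89.9 and 81.1 in the non-irradiated Sirpα-KO and WT tumors. The activating receptor *Klrk1* was at 159 in irradiated Sirpα-KO and 103 in irradiated WT tumors, and at 25.3 and 38.4 in the non-irradiated Sirpα-KO and WT tumors. *Eomes*, a transcription factor of NK and cytotoxic T cells, was at 95.2 in irradiated Sirpα-KO and 141 in irradiated WT tumors, and at 87.7 and 104 in the non-irradiated Sirpα-KO and WT tumors. All 6 measured of 7 NK and cytotoxic cell markers, *Gzma*, *Gzmb* and *Prf1* among them, summed to 1102 in irradiated Sirpα-KO and 1771 in irradiated WT tumors, and to 278 and 567 in the non-irradiated Sirpα-KO and WT tumors. The part of these cells in the granule values was not tested. Over the cytotoxic T and NK cell list, 1 of 10 genes was 2-fold lower after IR (median −0.42), near the 6.94% of all genes, and 4 of 8 were 2-fold lower without IR (median −0.89), beside 3.31% of all genes. The second median was −0.06 with no filter on low values and −1.56 with the filter at 100.

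*Ccr2*, the CCL2 receptor of inflammatory monocytes, and *Il10rb*, a shared chain of the receptors for IL-10 and type III interferons, completed the genes lower in both states. *Ccr2* was at 141 in irradiated Sirpα-KO and 247 in irradiated WT tumors, and at 125 and 204 in the non-irradiated Sirpα-KO and WT tumors. *Il10rb* was at 306 in irradiated Sirpα-KO and 618 in irradiated WT tumors, and at 325 and 506 in the non-irradiated Sirpα-KO and WT tumors. They too were chosen for being lower in both states, so the order of their samples is no further support. *Cd55*, which protects cells from complement, was lower after IR, at 32 in Sirpα-KO and 120 in WT tumors, and was at 9.15 and 29.1 in the non-irradiated Sirpα-KO and WT tumors, too low to be considered.

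The receptor chains for interferons had the lower value in Sirpα-KO tumors in both states, except that *Ifnar1* and *Ifnar2* were above 0 without IR when scaled to the geometric mean of the reference genes (0.12 and 0.02). *Ifngr1*, the ligand-binding chain for interferon gamma, was at 422 in irradiated Sirpα-KO and 1096 in irradiated WT tumors, and at 471 and 686 in the non-irradiated Sirpα-KO and WT tumors (−1.36 ± 0.16 and −0.53 ± 0.16). *Ifngr2*, its partner, had ratios of −0.87 ± 0.28 and −0.23 ± 0.26. *Ifnar1* and *Ifnar2*, which form the type I receptor, had ratios of −0.61 ± 0.22 and −0.12 ± 0.26 after IR, and of −0.02 ± 0.20 and −0.12 ± 0.26 without IR, where counting error alone spans 0. *Ifngr1* was the only one of these at 2-fold, after IR.

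**Figure D2:**
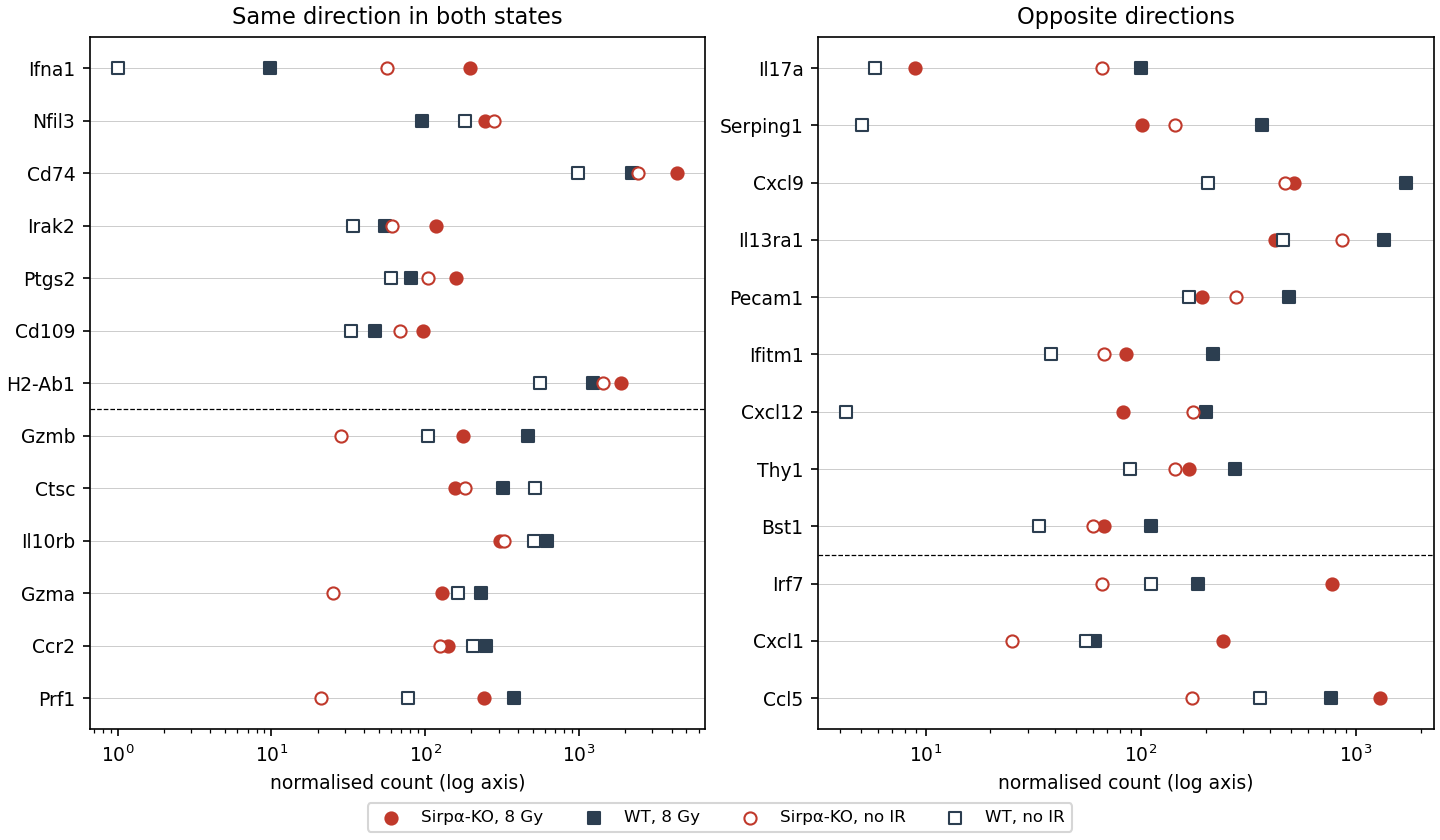
Normalized counts (log axis) of the 13 genes that were at least 1.5-fold apart in the same direction in both states (left) and of the 12 that were so in opposite directions (right). Filled points are irradiated and open points non-irradiated tumors, circles Sirpα-KO and squares WT, each point 1 pooled sample. On the right above the broken line, irradiated WT is the highest sample of all 9 genes and non-irradiated WT the lowest of 8. The choice of genes partly fixes this order.

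In the genes that were lower after IR and higher without IR, the WT tumors spanned the widest range. *Serping1*, the inhibitor of complement C1, was at 101 in irradiated Sirpα-KO and 366 in irradiated WT tumors (−1.76 ± 0.30), and at 144 in non-irradiated Sirpα-KO and 5.04 in non-irradiated WT tumors (3.35 ± 0.44). *Cxcl12*, the stromal ligand of CXCR4, was at 82.8 in irradiated Sirpα-KO and 201 in irradiated WT tumors (−1.18 ± 0.35), and at 175 and 4.27 in the non-irradiated Sirpα-KO and WT tumors (3.70 ± 0.42). *Il17a*, a cytokine that recruits neutrophils, was at 8.90 in irradiated Sirpα-KO and 100.0 in irradiated WT tumors (−2.54 ± 0.53), and at 66.2 and 5.82 in the non-irradiated Sirpα-KO and WT tumors (2.27 ± 0.49). In each, non-irradiated WT tumors were the lowest sample, above the floor of 3 counts, which came to 2.33 there. All 3 values lay below the highest negative control of that sample, which read 9.5. The size of these ratios without IR is therefore uncertain beyond the counting error given.

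*Cxcl9*, a CXCR3 ligand induced by interferon gamma, switched at high values. It was at 514 in irradiated Sirpα-KO and 1704 in irradiated WT tumors (−1.71 ± 0.14), and at 469 and 206 in the non-irradiated Sirpα-KO and WT tumors (1.15 ± 0.21). It was also the only gene that switched at 2-fold with all 4 values at least 100. *Il13ra1*, a receptor chain for IL-4 and IL-13, was at 420 in irradiated Sirpα-KO and 1356 in irradiated WT tumors, and at 862 and 457 in the non-irradiated Sirpα-KO and WT tumors (−1.67 and 0.90).

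*Pecam1*, the endothelial and leukocyte adhesion molecule CD31, was at 192 in irradiated Sirpα-KO and 487 in irradiated WT tumors, and at 276 and 168 in the non-irradiated Sirpα-KO and WT tumors. *Ifitm1*, an interferon-induced membrane protein, was at 85.4 in irradiated Sirpα-KO and 217 in irradiated WT tumors, and at 67.3 and 38.4 in the non-irradiated Sirpα-KO and WT tumors. *Thy1*, the T cell and stromal surface protein CD90, and *Bst1*, the surface protein CD157 of stroma and myeloid cells, had ratios of −0.67 and −0.65 after IR and of 0.65 and 0.67 without IR. Over these 9 genes the value after IR was 2.90 to 72.7 times that without IR in WT tumors, and 0.134 to 1.27 times in Sirpα-KO tumors. Irradiated WT tumors were the highest sample for all 9 and non-irradiated WT tumors the lowest for 8, the exception being *Il13ra1*. The choice of these genes partly fixes this order. It leaves only irradiated WT or non-irradiated Sirpα-KO tumors as the highest sample, and only non-irradiated WT or irradiated Sirpα-KO tumors as the lowest. It also puts the change with IR in WT tumors above that in Sirpα-KO tumors for each gene.

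Endothelial markers were set beside these genes. The 3 measured of 6 summed to 281 in irradiated Sirpα-KO and 594 in irradiated WT tumors, and to 338 and 208 in the non-irradiated Sirpα-KO and WT tumors, with *Sele* under the floor in all samples but irradiated Sirpα-KO. *Pecam1*, which makes up most of that sum, is itself one of the 9 genes. *Cdh5*, VE-cadherin, was at 71.2 in irradiated Sirpα-KO and 106 in irradiated WT tumors, and at 59.8 and 39.2 in the non-irradiated Sirpα-KO and WT tumors. The adhesion molecule *Vcam1* did not switch, at 503 in irradiated Sirpα-KO and 724 in irradiated WT tumors, and at 168 and 411 in the non-irradiated Sirpα-KO and WT tumors. Over the endothelial and vascular adhesion list, 1 of 7 genes was 2-fold lower after IR (median 0.00), beside 6.94% of all genes. Without IR 2 of 5 were 2-fold lower (median 0.48), beside 3.31% of all genes. The summed value of the list was 4341 in irradiated Sirpα-KO and 4742 in irradiated WT tumors, and 1952 and 2641 in the non-irradiated Sirpα-KO and WT tumors. The part of endothelial cells in the genes that switched was not tested.

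Of the complement genes, 13 were considered after IR, with 1 at 2-fold higher and 5 lower (median −0.43), beside 8.67% and 6.94% of all genes. Without IR 12 were considered, with 4 higher and 0 lower (median 0.30), beside 5.88% and 3.31% of all genes. The first median was 0.02 with no filter on low values and −0.04 with both values at least 100. *C1s*, a protease of the C1 complex, was at 204 in irradiated Sirpα-KO and 596 in irradiated WT tumors, and at 275 and 232 in the non-irradiated Sirpα-KO and WT tumors. *C3*, the central component, was at 157 in irradiated Sirpα-KO and 357 in irradiated WT tumors, and at 175 and 149 in the non-irradiated Sirpα-KO and WT tumors. For both genes irradiated WT tumors were the highest sample, and the other 3 samples lay between 204 and 275 for *C1s* and between 149 and 175 for *C3*.

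*C4a* was at 205 in irradiated Sirpα-KO and 234 in irradiated WT tumors, and at 110 and 26.0 in the non-irradiated Sirpα-KO and WT tumors. *C2*, also of the complement list, was at 43.6 in irradiated Sirpα-KO and 62.4 in irradiated WT tumors, and at 51.1 and 3.49 in the non-irradiated Sirpα-KO and WT tumors. For these 2 genes non-irradiated WT tumors stood apart below the other 3 samples, as for *Serping1*. The value of *C2* there lay below the highest negative control of that sample (9.5).

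The other switch was seen in 3 genes. *Irf7*, a transcription factor of the type I interferon response, was at 772 in irradiated Sirpα-KO and 184 in irradiated WT tumors (2.01 ± 0.26), and at 66.2 and 111 in the non-irradiated Sirpα-KO and WT tumors (−0.67 ± 0.38). *Cxcl1*, a neutrophil chemokine, was at 241 in irradiated Sirpα-KO and 60.9 in irradiated WT tumors, and at 25.3 and 55.5 in the non-irradiated Sirpα-KO and WT tumors. *Ccl5*, which draws T cells and monocytes, was at 1292 in irradiated Sirpα-KO and 769 in irradiated WT tumors, and at 173 and 360 in the non-irradiated Sirpα-KO and WT tumors. Here the Sirpα-KO tumors were both the highest and the lowest of the 4 samples for all 3 genes, an order that the choice of genes partly fixes.

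Several macrophage genes had the same pair of signs, and others did not. Over the macrophage and monocyte list, 5 of 15 genes were 2-fold higher after IR (median 0.67), beside 8.67% of all genes. Without IR 0 of 13 differed by 2-fold (median −0.28), beside 5.88% higher and 3.31% lower of all genes. The median after IR was 0.14 with both values at least 100. *Emr1*, which encodes F4/80, was at 876 in irradiated Sirpα-KO and 287 in irradiated WT tumors, and at 136 and 185 in the non-irradiated Sirpα-KO and WT tumors. *C1qa*, a macrophage-made chain of C1q, was at 3262 in irradiated Sirpα-KO and 1093 in irradiated WT tumors, and at 789 and 967 in the non-irradiated Sirpα-KO and WT tumors. *Cx3cr1*, the fractalkine receptor, was at 123 in irradiated Sirpα-KO and 41.4 in irradiated WT tumors, and at 103 and 143 in the non-irradiated Sirpα-KO and WT tumors. The marker *Cd14* went the opposite way, at 109 in irradiated Sirpα-KO and 150 in irradiated WT tumors, and at 120 and 78.8 in the non-irradiated Sirpα-KO and WT tumors. Without IR the ratios of *C1qb* and *Csf1r* were −0.01 each. They were above 0 when scaled to the geometric mean of the reference genes (0.13 and 0.12). Of the 13 genes of the list considered in both states, 4 kept their sign (30.8%), beside 49.1% of all 271 genes.

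Of the chemokines and growth factors of monocytes, 1 of 8 genes was 2-fold lower after IR (median −0.03), beside 6.94% of all genes. Without IR 1 of 6 was 2-fold lower and 1 of 6 higher (median −0.63), beside 3.31% and 5.88% of all genes. The gene after IR was *Ccl11*, eotaxin, at 10.7 in irradiated Sirpα-KO and 51.9 in irradiated WT tumors. *Csf1*, the growth factor of macrophages, was at 585 in irradiated Sirpα-KO and 1117 in irradiated WT tumors, and at 449 and 575 in the non-irradiated Sirpα-KO and WT tumors. The monocyte chemokine *Ccl12* was at 370 in irradiated Sirpα-KO and 467 in irradiated WT tumors, but at 160 and 502 in the non-irradiated Sirpα-KO and WT tumors (−0.33 ± 0.21 and −1.59 ± 0.24). *Ccl2* was at 4889 in irradiated Sirpα-KO and 4708 in irradiated WT tumors, and at 1112 and 2108 in the non-irradiated Sirpα-KO and WT tumors (0.05 ± 0.06 and −0.92 ± 0.10). *Ccl8*, a further monocyte chemokine, went the opposite way, with 2091 in irradiated Sirpα-KO and 1896 in irradiated WT tumors, and 472 and 205 in the non-irradiated Sirpα-KO and WT tumors. *Cd34*, of vascular and progenitor cells, was at 2611 in both irradiated samples, and at 681 and 1453 in the non-irradiated Sirpα-KO and WT tumors.

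**Figure D3:**
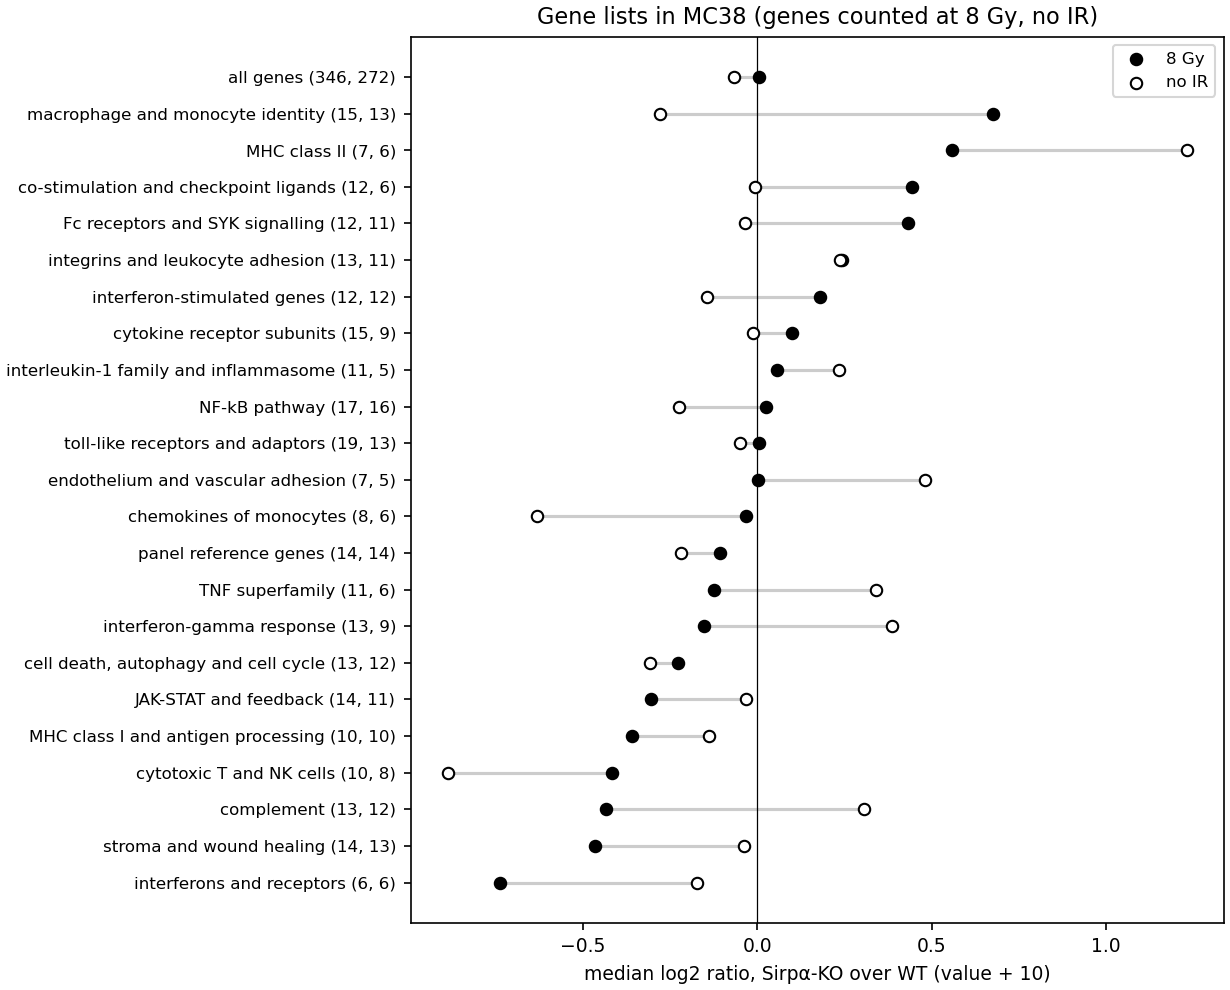
Median log2 ratio of Sirpα-KO over WT MC38 tumors (normalized count + 10) for each gene list with at least 5 genes considered in both states, filled for 8 Gy and open for no IR, with the number of genes at 8 Gy and without IR in brackets. MHC class II lies to the right in both states (0.56 and 1.23), cytotoxic T and NK cells to the left in both (−0.42 and −0.89), and the macrophage and complement lists cross 0.

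The difference between genotypes was then fitted over both states with limma, with the irradiation state as a block, for 347 genes. The p-values set each difference against a variance drawn mostly from all genes together (12.2 prior against 1 residual degree of freedom). A small p therefore need not mean that the 2 pairs were alike, and it does not measure the spread between mice. Flipping signs within 2 pairs allows no exact two-sided p below 0.5. *Ifna1* was the only gene past an adjusted p of 0.05, by 2.98 on the log2 scale (SE 0.49, adjusted p = 0.0121, 1 gene or 0.288% higher and 0 or 0% lower). At an unadjusted p under 0.05 there were 15 higher (4.32%) and 9 lower (2.59%). The call of *Ifna1* was lost when the samples were scaled to the geometric mean of the reference genes (adjusted p = 0.769), with a pseudocount of 1 (0.191) or 50 (0.358), with a value of at least 100 (0.567), with all 12 samples in the fit (0.0508) and without the block (0.995). *Gzmb*, with −1.45 (SE 0.33), had an adjusted p of 0.124 and *Gzma*, with −1.55 (SE 0.39), one of 0.171 in limma's fit, and both passed with a value of at least 100 (0.0118 each). *Cd74*, with 1.14 (SE 0.36), had an adjusted p of 0.491, against 0.0363 with all 12 samples in the fit. *Gzmb* (0.0380) and *Gzma* (0.0198) also passed in limma when scaled by the median ratio. *Gzmb*, *Gzma* and *Cd74* did not pass when scaled to the geometric mean of the reference genes (0.769 each in limma) or without the block (0.995 each). With a pseudocount of 1, limma gave 0.558 for *Gzmb* and 0.735 for *Gzma* and *Cd74*.

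The genotype difference in MC38 was compared with that in Pan02 and KPC, both pancreatic ductal adenocarcinomas grown, irradiated and pooled in the same way. Each condition was again 1 pooled sample, so these p-values do not measure the spread between mice either. In the contrast 4 of 461 genes were higher (0.868%), all of them class II genes, and 1 was lower (0.217%). By limma, *Cd74* differed by 1.47 (SE 0.33, adjusted p = 0.00782), *H2-Ab1* by 1.47 (SE 0.34, adjusted p = 0.00782), *H2-Aa* by 1.47 (SE 0.34, adjusted p = 0.00827) and *H2-Eb1* by 1.49 (SE 0.37, adjusted p = 0.0174). *Gzmb* differed by −2.19 (SE 0.50, adjusted p = 0.00782). At an unadjusted p under 0.05, 24 genes were higher (5.21%) and 8 lower (1.74%). The calls were lost when limma was run without a trend of variance (smallest adjusted p 0.763, 0 genes) and without Pan02 (0.640, 0 of 363). Without the non-irradiated KPC tumors, which held 12292 net counts in Sirpα-KO and 21576 in WT, 3 genes were higher and 0 lower, and *H2-Eb1* (0.0895) and *Gzmb* (0.0593) no longer passed.

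The models were scaled separately, to reference gene sums of 58124 in MC38, 43973 in Pan02 and 25879 in KPC, so levels compare within a model only. The sign of the class II difference was opposite in most pairs of the other models. *Cd74* was higher in Sirpα-KO in both MC38 pairs and lower in 3 of the 4 other pairs, with ratios from −0.79 to 0.03. In Pan02 it was at 10252 in irradiated Sirpα-KO and 12963 in irradiated WT tumors, and at 8118 and 14080 in the non-irradiated Sirpα-KO and WT tumors. In KPC it was at 3791 in irradiated Sirpα-KO and 4499 in irradiated WT tumors, and at 1349 and 1320 in the non-irradiated Sirpα-KO and WT tumors. *H2-Ab1* and *H2-Eb1* were lower in Sirpα-KO in all 4 other pairs, and *H2-Aa* in 3 of them.

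*Gzmb* was lower in Sirpα-KO in both MC38 pairs and higher in 3 of the 4 other pairs. In Pan02 it was at 233 in irradiated Sirpα-KO and 44.8 in irradiated WT tumors, and at 113 and 59.6 in the non-irradiated Sirpα-KO and WT tumors. In KPC it was at 85.5 in irradiated Sirpα-KO and 101 in irradiated WT tumors, and at 123 and 106 in the non-irradiated Sirpα-KO and WT tumors. *Prf1* had the same signs as *Gzmb* in all 6 pairs, with a contrast of −1.73 (SE 0.54) and an adjusted p of 0.168 in limma's fit. In KPC the ratios of *Gzmb* and *Prf1* were small, at −0.21 and −0.23 after IR and 0.20 and 0.21 without IR. Without IR 1 count was worth 6.48 in Sirpα-KO and 3.79 in WT tumors of KPC. No counting interval is given for these pairs, so their signs are uncertain. *Gzma* was lower in Sirpα-KO in 3 of the 4 other pairs (ratios −1.43 to 1.31), and its contrast of −1.30 (SE 0.57) had an adjusted p of 0.569 in limma's fit. Low genes were higher in irradiated Sirpα-KO Pan02 tumors in general, with a 20th percentile over all genes of 49.5, against 4.07 in irradiated WT. The part of this rise in the Pan02 ratios of these granule genes and in their contrasts was not tested.

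*Ctsc* and *Ifna1* had the sign of MC38 in the other models too. *Ctsc* was lower in Sirpα-KO in 6 of 6 pairs, with ratios from −1.92 to −0.89, and the MC38 difference was not distinguished from that of the other models (0.32, SE 0.39, adjusted p = 0.992 in limma). In irradiated tumors *Ifna1* was at 907 in Sirpα-KO and 3.25 in WT for Pan02, and at 303 in Sirpα-KO and 9.07 in WT for KPC. Without IR it was at 2.48 in Sirpα-KO and 1.77 in WT for Pan02, and at 6.48 and 3.79 for the Sirpα-KO and WT tumors of KPC, all 4 at or below the floor of 3 counts. A non-irradiated value above that floor was seen only in Sirpα-KO MC38 tumors among the 6 non-irradiated samples.

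**Figure D4:**
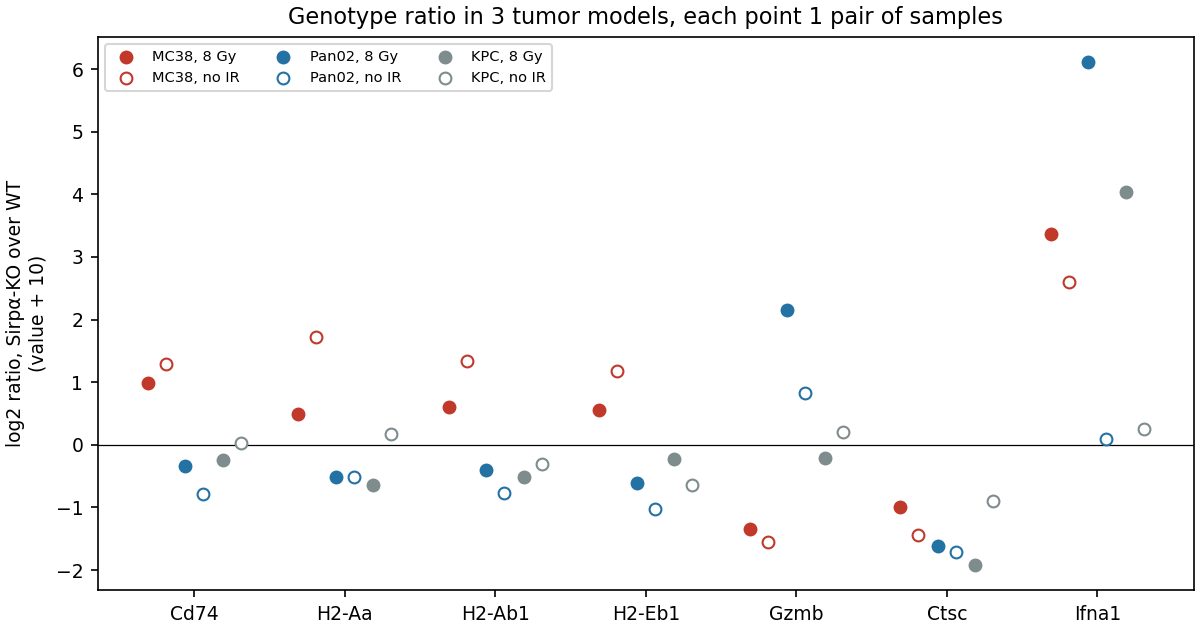
Log2 ratio of Sirpα-KO over WT (normalized count + 10) for 7 genes in MC38, Pan02 and KPC tumors, filled for 8 Gy and open for no IR, each point 1 pair of pooled samples. The 4 class II genes are above 0 in both MC38 pairs and mostly below 0 elsewhere, Gzmb is below 0 in both MC38 pairs, Ctsc is below 0 in all 6 pairs, and Ifna1 is above 0, with the non-irradiated Pan02 and KPC pairs between values at or below the floor of 3 counts.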

How the data were processed

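The authors counted 100 ng of pooled tumor RNA per sample on the nCounter Mouse Immunology Panel and processed the counts in nSolver. The deposited signal holds their normalized counts, from which a background set by the negative controls had been taken off and to which a positive control factor had been applied. The 14 reference genes summed to 58124 in all 4 MC38 samples, and to other equal sums within Pan02 and KPC, so the deposited values were also scaled to them within each model. The 14 control probes were dropped. Both deposited tables were identical in 6732 of 6732 gene values, and 0 columns were unmapped. Low values of a sample lay on fixed steps of 0.776 to 1.5 normalized counts in MC38, taken as 1 count (tolerance 0.1), from which net counts and counting intervals were derived. The intervals leave out the deducted background, and counts serve for these intervals and floors only. Symbols were kept as deposited (545 current, 14 older and 2 not found in the GRCm38.p6 table).

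Ratios used a pseudocount of 10, a larger value of at least 50, and 2-fold or 1.5-fold. limma 3.58.1 (R 4.3.3, eBayes with trend, Benjamini-Hochberg) was fitted to log2(value + 10), with irradiation as a block in MC38 (347 genes, 1 residual degree of freedom), and over all 12 samples with tumor model by irradiation as blocks (461 genes, 3 residual degrees of freedom). No two-group test within a state was possible. The procedure was tested on simulated data. Alternatives were 2 other scalings (geometric mean of the reference genes, median ratio), pseudocounts of 1 and 50, other filters, limma without trend or block, all 12 samples, and leaving out a tumor model. Named genes were those of the classes at 1.5-fold, the 10 largest rises and falls per state (larger value at least 100), the 4 largest of each gene list, those past a test and those named by the study. *H2-DMa*, *Ciita*, *Ctss*, *H2-Ea-ps*, *Klrd1*, *Klrk1*, *Ccl11*, *Eomes*, *C3*, *Cdh5*, *Ifnar1*, *Ifnar2*, *B2m*, *H2-K1*, *Psmb9*, *Psmb5*, *Tap1*, *Tapbp*, *Jak2*, *Stat6*, *Stat3*, *Stat5a*, *Cd14*, *C1qb* and *Csf1r* and the markers under the floor were picked with their values known. The members, lists and rules were chosen with earlier results of these data known. *Sirpa* was not analysed here. Figures were drawn with matplotlib 3.10.9.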

Additional observations from a re-analysis of the deposited data

Results flagged for a closer look

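The genotype difference took opposite signs in the 2 irradiation states for 4 genes at 2-fold, each from 1 pair of samples per state, and the difference between the states was not tested. The ratio was −2.54 after IR and 2.27 without IR for *Il17a*, −1.76 and 3.35 for *Serping1*, −1.18 and 3.70 for *Cxcl12*, and −1.71 and 1.15 for *Cxcl9*. In non-irradiated WT tumors *Il17a*, *Serping1* and *Cxcl12* lay below the highest negative control of that sample (9.5).

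The genotype difference of 5 genes in MC38 differed from that in Pan02 and KPC by limma, whose p-values here do not measure the spread between mice. It was 1.47 for *Cd74* (adjusted p = 0.00782), 1.47 for *H2-Ab1* (0.00782), 1.47 for *H2-Aa* (0.00827), 1.49 for *H2-Eb1* (0.0174) and −2.19 for *Gzmb* (0.00782), and all of these calls were lost without a trend of variance.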

How the results depend on the processing

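Genes higher after IR numbered 14 with a pseudocount of 50, 99 with no filter, 19 with a value of at least 100 and 69 at 1.5-fold, and genes lower after IR 12 with a pseudocount of 50 and 62 at 1.5-fold. Without IR, 10 were higher with a pseudocount of 50 or a value of at least 100 and 31 at 1.5-fold, and 5 were lower with a pseudocount of 50 and 23 at 1.5-fold. With both values at least 100, an alternative chosen after the data were seen, there were 8 higher and 11 lower after IR, 6 higher and 5 lower without IR, 0 higher and 0 lower in both states, and 1 that switched to lower after IR. Genes higher in both states numbered 2 under either scaling or a pseudocount of 1, 3 with no filter, 0 with a value of at least 100 and 7 at 1.5-fold. Genes lower in both numbered 2 with a pseudocount of 1 or no filter, 0 with a pseudocount of 50 and 6 at 1.5-fold. At 1.5-fold 9 genes were lower after IR and higher without, and the other switch was seen in 1 gene with a pseudocount of 1 and 3 at 1.5-fold.

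In the limma fit over both states, the genes higher numbered 0 under scaling to the geometric mean of the reference genes, pseudocounts of 1 and 50, a value of at least 100 and no block, and 2 under scaling by the median ratio and with all 12 samples, while the genes lower numbered 2 under scaling by the median ratio or a value of at least 100 and 1 with all 12 samples. In the contrast with Pan02 and KPC, 0 were higher and 0 lower without trend or without Pan02, 0 lower without the non-irradiated KPC samples and 2 lower without KPC. The cause of these changes was not tested. No named gene that was called at 2-fold or by limma took the other sign in the state of its call under these alternatives, but some list medians did, such as that of the T cell list after IR, at −0.63 with a value of at least 100 where it was 0.43. Scaling to that geometric mean placed the median ratio of all genes considered at 0.06 without IR, where it was −0.07 as deposited, and scaling by the median ratio placed it at 0.10 after IR, where it was 0.00. No paired analysis by replicate number was possible because each condition was 1 sample. Low genes limit the depth: at 50 normalized counts 1 count was worth 0.776 to 1.5.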

Other observations

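MHC class I genes did not share the direction of class II. *B2m*, the light chain of class I molecules, was at 23441 in irradiated Sirpα-KO and 31770 in irradiated WT tumors, and at 17885 and 12684 in the non-irradiated Sirpα-KO and WT tumors (−0.44 ± 0.03 and 0.50 ± 0.03). *H2-K1*, a class I heavy chain, was at 2016 in irradiated Sirpα-KO and 3056 in irradiated WT tumors, and at 1751 and 1414 in the non-irradiated Sirpα-KO and WT tumors. *Psmb9*, a subunit of the immunoproteasome, was at 360 in irradiated Sirpα-KO and 559 in irradiated WT tumors, and at 265 and 180 in the non-irradiated Sirpα-KO and WT tumors. These 3 genes were lower after IR and higher without IR, but the rest of the class I list did not share that switch. The signs were the reverse for *Psmb5* (0.53 and −0.49), *Psmb10* (0.03 and −0.48), *Tap1* (0.10 and −0.04) and *Tapbp* (0.01 and −0.14). *Tap1* without IR was above 0 under the 2 other scalings. As deposited, 3 genes were negative in both states. No gene of the list was 2-fold apart in either state (10 genes considered, medians −0.36 and −0.14). Among all genes considered, 8.67% were 2-fold higher and 6.94% lower after IR, and 5.88% and 3.31% without IR. The proteasome subunit *Psmb7* was at 1388 in irradiated Sirpα-KO and 2695 in irradiated WT tumors, and at 1839 and 2025 in the non-irradiated Sirpα-KO and WT tumors.

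Genes of JAK-STAT signaling, which carries cytokine signals from receptor to nucleus, had a median of −0.31 over 14 genes after IR and −0.03 over 11 genes without IR, with 0 at 2-fold in either state. The shares of all genes are those given above for class I. *Jak2* was at 162 in irradiated Sirpα-KO and 330 in irradiated WT tumors, and at 207 and 210 in the non-irradiated Sirpα-KO and WT tumors. *Stat6*, which acts downstream of IL-4 and IL-13, was at 432 in irradiated Sirpα-KO and 819 in irradiated WT tumors, and at 558 and 632 in the non-irradiated Sirpα-KO and WT tumors. *Stat3*, which acts downstream of IL-6 and IL-10, was at 765 in irradiated Sirpα-KO and 1263 in irradiated WT tumors, and at 501 and 691 in the non-irradiated Sirpα-KO and WT tumors. Of the 11 genes considered in both states, 7 were negative in both and 0 positive in both, beside 83 and 50 of all 271 genes. Without IR the ratios of *Jak2* and *Stat5a* were only −0.02 and −0.03. They were above 0 when scaled to the geometric mean of the reference genes (0.12 and 0.10) or by the median ratio (0.04 and 0.02).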
